A study of Mus musculus with 10 samples.

Results

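Aspirin (acetylsalicylic acid, ASA) given in the diet was compared with the same diet without it in colon tissue of mice that had received azoxymethane and dextran sulfate sodium. The comparison rests on 4 of the 10 RNA-seq libraries of the study, the 2 of the ASA group against the 2 of the Model group, chosen by their labels. All mice were C57BL/6. Model mice were injected with azoxymethane (AOM), a colon carcinogen, at 10 mg/kg at 6 weeks of age, drank 1.2% (w/v) dextran sulfate sodium (DSS), which injures the colon lining, for 7 days starting a week later, and ate the AIN-93M diet. ASA mice received the same AOM and DSS, and their AIN-93M diet held 0.02% aspirin. The 2 Control libraries, from mice with saline in place of AOM, no DSS and the AIN-93M diet, are given for reference. Nothing in the labels ties the 2 libraries of a group to different mice. The p-values therefore rest on library-to-library spread, shared over all 10 libraries, part of which may be technical.

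The labels name the AOM/DSS tissue as tumour, whereas the protocol describes freezing a right portion of the colon once its proximal end and the palpable tumours had been taken away. The tumour content of each piece is unknown. Colon epithelial markers (Epcam, Krt8, Krt18, Krt20, Cdx1, Cdx2, Vil1 and Slc26a3) summed to 5281 and 3556 FPKM in Model replicates 0 and 1 and to 4697 and 4601 in ASA replicates 0 and 1, so the epithelium of the label was present in all 4 libraries. FPKM is a fragment count scaled to transcript length and to the size of the library, and values are given in the order replicate 0, replicate 1 throughout.

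Aspirin acetylates the cyclooxygenases, PTGS1 and PTGS2, which turn arachidonic acid into the precursor of prostaglandins and thromboxane. Prostaglandin E2 acts on the gut epithelium and on immune cells through the EP receptors and is broken down by the dehydrogenase HPGD. Aspirin itself is hydrolysed to salicylate by esterases. Because aspirin acts on the cyclooxygenase proteins, the level of their mRNA is not a readout of the drug's action on the enzymes. In bulk tissue, fewer cells of a type and less RNA per cell cannot be told apart.

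The libraries differed in ways that the diets do not define. Among the 4 Model and ASA libraries, ASA replicate 0 carried the strongest distal colon pattern. Hoxd13, a homeobox gene of the hindmost gut, had 8.35 and 0.0850 FPKM in Model and 75.7 and 0.0566 in ASA (Control 3.52 and 1.86). Hoxb13, another hindgut gene, had 94.7 and 27.9 FPKM in Model and 197 and 15.0 in ASA. With 186 and 270 FPKM in Control, Hoxb13 did not set ASA replicate 0 apart from Control. Model replicate 0 was the next highest of the 4 in both genes. Cdx2, a homeobox factor of the intestinal epithelium, was low in ASA replicate 0 alone among the 4, with 64.1 and 62.8 FPKM in Model and 5.22 and 61.1 in ASA (Control 139 and 124). Model replicate 1 held more B and plasma cell RNA than the other 3, and Jchain, the chain that joins secreted antibodies, had 323 and 1038 FPKM in Model and 87.5 and 162 in ASA (Control 483 and 189.7).

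Libraries of 1 diet differed in as many rows as libraries of different diets. Between the ASA libraries 6.32% of the 14061 rows tested (888) differed by at least 2-fold on the log2(FPKM + 1) scale, and between the Model libraries 6.24% (878). ASA replicate 1 differed from Model replicate 0 in 3.1% of rows and from Model replicate 1 in 3.07%, so it was closer to each Model library than to the other ASA library. ASA replicate 0 differed from Model replicate 0 in 4.34% and from Model replicate 1 in 8.22%. Medians of gene lists are therefore also given with 1 library left out, either without ASA replicate 0, the library with the distal pattern, or as the lowest and highest over the 4 libraries. The sums of FPKM lay between 532097 and 580450 in the 4 libraries, and a microRNA precursor gene, Mir680-3, took 2.3% of the sum in ASA replicate 1. The depth of each library is unknown, since FPKM does not keep it.

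**Figure D1:**
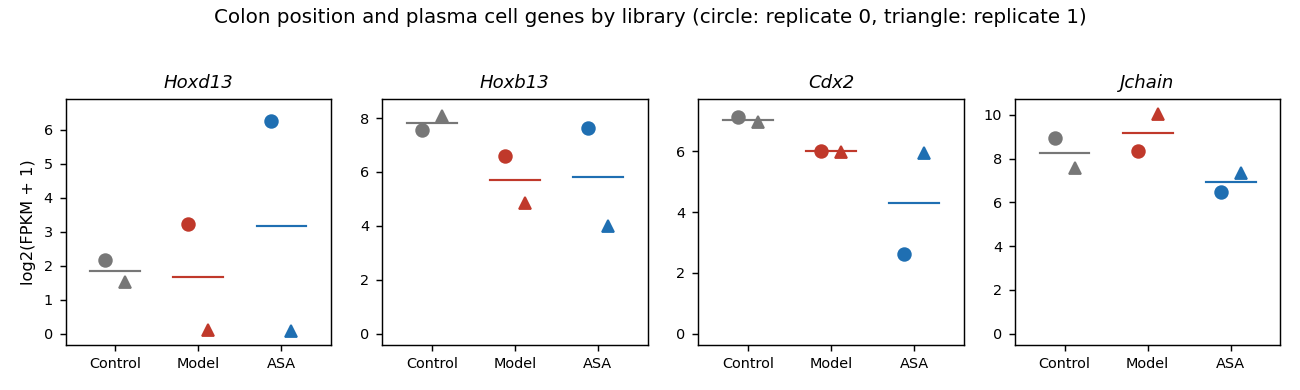
Levels of Hoxd13, Hoxb13, Cdx2 and Jchain on the log2(FPKM + 1) scale in the Control, Model and ASA libraries. Each point is a library and each line a group mean. ASA replicate 0 stands apart from ASA replicate 1 in Hoxd13 (75.7 and 0.0566 FPKM), Hoxb13 and Cdx2, while both ASA libraries lie below both Model libraries in Jchain.

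Of the 14061 rows tested, 2 passed limma's test at an adjusted p below 0.05 in ASA against Model, which is 0.0142% of them, 1 higher and 1 lower. At an unadjusted p below 0.05 there were 335 rows (2.38%), 133 higher and 202 lower. The 2 ASA libraries lay above both Model libraries in 1804 rows (12.8%) and below both in 1998 (14.2%). The mean on the log2(FPKM + 1) scale was higher in ASA in 6710 rows and lower in 7351. These are the shares against which the counts of each gene group are read. The median log2 difference, ASA minus Model, was -0.01 over all rows. In the same fit 2276 rows (16.2%) passed in Model against Control and 3163 (22.5%) in ASA against Control.

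The row that rose was Hba-a2, 1 of a pair of alpha-globin genes of red cells on chromosome 11 (32296492 to 32297310, GRCm38). Its value was 0.0361 and 0.0358 FPKM in Model and 30.0 and 17.3 in ASA, a log2 difference of 4.52 ± 0.33 (SE, adjusted p = 0.0125). The neighbouring copy, Hba-a1 (32283672 to 32284486), had 26.4 and 85.4 FPKM in Model and 20.5 and 39.5 in ASA, and these libraries overlap. The copies are almost the same in sequence, and the part of how fragments were shared between them in each value was not tested. Their coding sequences, taken from GENCODE transcripts of GRCm38, are 429 bases long and differ at 1 base, C381T, counted from the A of the start codon with the base of Hba-a1 first. Of the 355 windows of 75 bases in the coding sequence, 306 (86.2%) are the same in both. Bases 336 to 426 of each are shown with that base in capitals, since it is the 1 coding base at which the copies differ:
Hba-a1: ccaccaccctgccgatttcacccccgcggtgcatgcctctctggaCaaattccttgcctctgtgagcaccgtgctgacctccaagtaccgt
Hba-a2: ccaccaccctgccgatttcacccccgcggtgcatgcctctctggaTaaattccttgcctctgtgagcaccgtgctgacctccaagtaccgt

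The sum of both copies was 26.5 and 85.4 FPKM in Model and 50.4 and 56.8 in ASA, and the ASA values lay between the Model values. Tested as a single row, the alpha-globin sum had a log2 difference of 0.16 (adjusted p = 1), so the call ended. The call of Hba-a2 alone also ended without ASA replicate 0 (log2 difference 4.14, adjusted p = 0.104), without either Model library (adjusted p = 0.281 and 0.283), with a pseudocount of 5 FPKM (0.141) and where fewer libraries were in the fit (0.158 with the 4 alone, 0.0616 with the 8 of the AOM/DSS groups). Hba-a2 made up 0.136 and 0.0419% of that sum in Model and 59.4 and 30.5% in ASA. The beta-globin genes overlapped between the diets. Hbb-bs had 37.5 and 91.2 FPKM in Model and 50.3 and 64.2 in ASA and Hbb-bt 7.54 and 16.6 FPKM in Model and 4.19 and 11.2 in ASA, with adjusted p = 1 for both. Alas2, the first enzyme of haem synthesis in red cells, had 0.699 and 1.83 FPKM in Model and 1.32 and 1.46 in ASA. Beyond the 4 libraries, Hba-a2 stood at 0.0357 and 0.0353 FPKM in Control, 0.0365 and 0.0354 in the group fed 2% curcumin (CUR) and 9.22 and 18.1 in the group fed 0.01% aspirin with 1% curcumin (ASA+CUR). It was thus between 9.22 and 30.0 FPKM in the 4 libraries with aspirin in the diet and between 0.0353 and 0.0365 in the 6 without. Those 6 values hardly differ, while Hba-a1 ran from 12.7 to 85.4 FPKM in the same libraries. Whether so even a low value measures expression was not tested, and its small spread enters the standard error of Hba-a2. Like the row below, it reached the filter on low values only through the libraries where it is high.

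**Figure D2:**
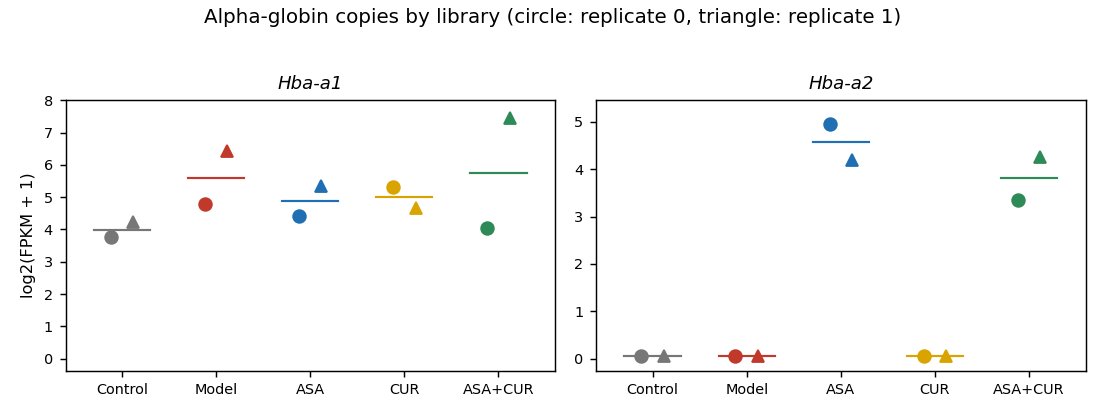
Levels of the alpha-globin copies Hba-a1 and Hba-a2 on the log2(FPKM + 1) scale in all 10 libraries. Each point is a library and each line a group mean. Hba-a2 is near 0 in the Control, Model and CUR libraries and at or above 9.22 FPKM in the ASA and ASA+CUR libraries, while Hba-a1 overlaps between Model and ASA.

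The row that fell is a RefSeq transcript, NM_010039, which the gene tables used here do not name. It had 14.2 and 6.81 FPKM in Model and was listed at 0 in both ASA libraries and in the other 6 (log2 difference -3.44 ± 0.29 SE, adjusted p = 0.0173). The row reached the filter of 1 FPKM in 2 libraries only through the 2 Model libraries, the group where it is high, so its direction was set by its entry into the test. Since such a 0 may stand for an estimate that failed, no fold is given. Small nucleolar RNA genes, whose transcripts are short, showed the same all-or-none form in both directions. Snora15 had 223 and 127 FPKM in Model and was listed at 0 in both ASA libraries. In Model, Snora16a was listed at 0 in each library, and it had 22.3 and 22.1 in ASA, and Snora78 was likewise listed at 0 in Model with 14.0 and 20.8 in ASA. None of these 3 passed (adjusted p = 1), though Snora15 and Snora16a passed where only the 4 libraries were in the fit (adjusted p = 0.0305 for both) and the 2 rows above did not.

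Genes of smooth muscle, the contractile wall of the gut, were lower in most members by the count of genes without overlap. Of 26 tested (of 27 listed), 0 passed, 21 lay lower in both ASA libraries than in both Model libraries and 0 higher, beside 14.2% lower over all rows, and 14 were lower at an unadjusted p below 0.05 (beside 2.38% in either direction). The median log2 difference was -0.85, and -0.72 without ASA replicate 0. Des, the intermediate filament desmin, had 68.4 and 83.3 FPKM in Model and 13.9 and 17.5 in ASA, against 1451 and 851 in Control (log2 difference -2.20 ± 0.30, adjusted p = 0.243). Cnn1, the actin-binding calponin, had 47.4 and 47.2 FPKM in Model and 7.67 and 10.5 in ASA (log2 difference -2.27 ± 0.32, adjusted p = 0.243). Actg2, the gamma actin of gut muscle, had 120.1 and 118 FPKM in Model and 39.6 and 39.1 in ASA, and Tagln, the actin-bundling transgelin, had 192 and 252 FPKM in Model and 74.7 and 97.5 in ASA. In all 4 genes the ASA libraries lay close together and below Model, and the Control libraries were far above both. The 6 muscle markers Des, Cnn1, Acta2, Myh11, Tagln and Actg2 summed to 8702 and 5286 FPKM in Control, 669 and 838 in Model and 268 and 314 in ASA. The pieces of the AOM/DSS groups thus held little muscle RNA beside Control, and the part of how much wall was taken with each piece was not tested.

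Many smooth muscle genes are driven by serum response factor, which binds a sequence known as the CArG box. Promoters of 300 bases (250 before and 50 after an annotated start of the gene) were matched for 21 of the 26 members. A CArG box was found in 2 of them, Myl9 and Ldb3, beside 1.81% of 27025 genes with a promoter. The promoter of Myl9, which codes for a myosin light chain (125 and 189.6 FPKM in Model and 58.4 and 73.6 in ASA), is shown with the match in capitals (RefSeq, GRCm38.p6, chr2:156775214-156775513, plus strand), as an example of this group:
Myl9: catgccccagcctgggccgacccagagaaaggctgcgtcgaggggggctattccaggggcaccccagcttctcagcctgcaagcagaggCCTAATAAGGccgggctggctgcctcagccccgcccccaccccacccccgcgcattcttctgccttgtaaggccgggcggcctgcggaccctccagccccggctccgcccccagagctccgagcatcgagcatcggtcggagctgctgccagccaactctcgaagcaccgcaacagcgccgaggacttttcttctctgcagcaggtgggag
Ldb3, which codes for a protein of the contractile Z-disc, had 4.70 and 3.41 FPKM in Model and 5.75 and 3.82 in ASA, and these overlap.

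Genes of enteric neurons and glia, which lie in the same wall, were lower in part. Of 20 tested (of 22 listed), 0 passed, 2 were lower at an unadjusted p below 0.05 and 7 lay below Model in both ASA libraries (0 above), with a median of -0.10 (-0.12 without ASA replicate 0). Vip, a neuropeptide that relaxes gut muscle, had 4.84 and 3.54 FPKM in Model and 0.195 and 1.69 in ASA, and Prph, a neuronal filament, had 1.01 and 0.739 FPKM in Model and 0 and 0.0820 in ASA. Against the 46.1 and 41.9 FPKM of Vip in Control, all 4 levels were small. Lum, a matrix proteoglycan of fibroblasts, had 15.7 and 22.3 FPKM in Model and 4.72 and 6.81 in ASA, whereas Dcn, another such proteoglycan, had 186 and 252 FPKM in Model and 302 and 258 in ASA. The fibroblast and matrix list as a whole did not share the muscle genes' direction: 17 of its 23 tested members had a higher mean in ASA, 2 lay above Model in both libraries and 1 below, and the median was 0.19 (from -0.27 without Model replicate 0 to 0.58 without Model replicate 1). Of 21 endothelial genes tested, 1 lay above Model in both libraries and 0 below, and their median of -0.10 ran from -0.48 without Model replicate 0 to 0.29 without Model replicate 1.

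Paneth cells are secretory cells of the small intestinal crypt that make lysozyme and alpha-defensins, and they are rare in a normal mouse colon. All 10 listed alpha-defensin genes had a listed value of 0 in each Control library, and Lyz1, the lysozyme gene, had 7.24 and 6.48 FPKM there. Lyz1 had 1746 and 2760.2 FPKM in Model and 1021 and 1602 in ASA, so both ASA libraries lay below both Model libraries (log2 difference -0.78 ± 0.28, unadjusted p = 0.0229, adjusted p = 1). Defa24 had 1650.1 and 2048 FPKM in Model and 154 and 1097 in ASA, and Defa30 had 611 and 1011 FPKM in Model and 8.90 and 519 in ASA. The 10 alpha-defensins, which are near-identical copies among which the split of fragments is uncertain, summed to 3324 and 4629.8 FPKM in Model and 229.7 and 2265 in ASA. The sum was thus lower in both ASA libraries, and by far the lowest in ASA replicate 0, the library with the distal pattern.

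Over the 16 Paneth cell genes tested, 0 passed, 10 lay below Model in both ASA libraries and 0 above, beside 14.2% and 12.8% over all rows. At an unadjusted p below 0.05, 9 were lower (beside 2.38% in either direction). The list includes the 10 alpha-defensin copies, so its counts and median may repeat 1 signal. The median log2 difference was -2.19, and it became -0.61 without ASA replicate 0 and -3.66 without ASA replicate 1. Within the ASA group the median of replicate 0 minus replicate 1 was -2.63. Itln1, an intestinal lectin, had 319 and 474 FPKM in Model and 157 and 368 in ASA, and Pla2g2a, a secreted phospholipase, had 325 and 214 FPKM in Model and 298 and 268 in ASA, and these overlap.

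Goblet cells secrete the mucus layer of the colon. Of 15 goblet cell genes tested (of 17 listed), 0 passed, 3 were lower at an unadjusted p below 0.05, 9 lay below Model in both ASA libraries and 1 above, and the median was -0.72 (-0.82 without ASA replicate 0). Tff3, a trefoil peptide of mucus, had 1600.5 and 1902 FPKM in Model and 880.2 and 854 in ASA, against 3293 and 3452 in Control. Klk1, a kallikrein protease, had 369 and 234 FPKM in Model and 114 and 119.8 in ASA (Control 2492 and 2119.5), and Atoh1, the transcription factor that sets the secretory lineage, had 14.4 and 14.4 FPKM in Model and 7.54 and 9.17 in ASA (Control 44.7 and 49.8). In each of these 3 genes the order was Control, then Model, then ASA with no overlap. Clca1, a secreted mucus protein, had 423 and 205 FPKM in Model and 77.3 and 162 in ASA, and Zg16, a mucus lectin, had 1063 and 729.6 FPKM in Model and 609 and 395 in ASA. The log2 differences of these 5 lay between -1.39 and -0.72, with adjusted p = 1 for each.

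Enteroendocrine cells release the peptide hormones of the gut. Gcg, which codes for the glucagon-like peptides, had 12.8 and 9.75 FPKM in Model and 4.48 and 3.58 in ASA, against 112 and 103 in Control (log2 difference -1.28 ± 0.18, adjusted p = 0.243, and -1.41 without ASA replicate 0). Pcsk1, a protease that processes prohormones, had 3.53 and 3.35 FPKM in Model and 0.956 and 1.48 in ASA (log2 difference -1.01 ± 0.19, adjusted p = 0.833). Sst, somatostatin, had 3.09 and 2.35 FPKM in Model and 0.474 and 0.157 in ASA, and Tph1, the enzyme that starts serotonin synthesis in these cells, had 2.66 and 4.16 FPKM in Model and 1.06 and 1.47 in ASA. All 4 lay lower in both ASA libraries. Of the 17 listed genes tested 0 passed, 7 lay below Model in both libraries, 0 above, and 5 were lower at an unadjusted p below 0.05. The list median moved with the library left out, from -0.40 to -0.82 without ASA replicate 0 and to 0.23 without ASA replicate 1. Tuft cell genes, a rare chemosensory lineage, had a median of -0.05 over 9 tested (from -0.25 without ASA replicate 1 to 0.19 without ASA replicate 0), with 1 above and 2 below Model in both libraries.

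**Figure D3:**
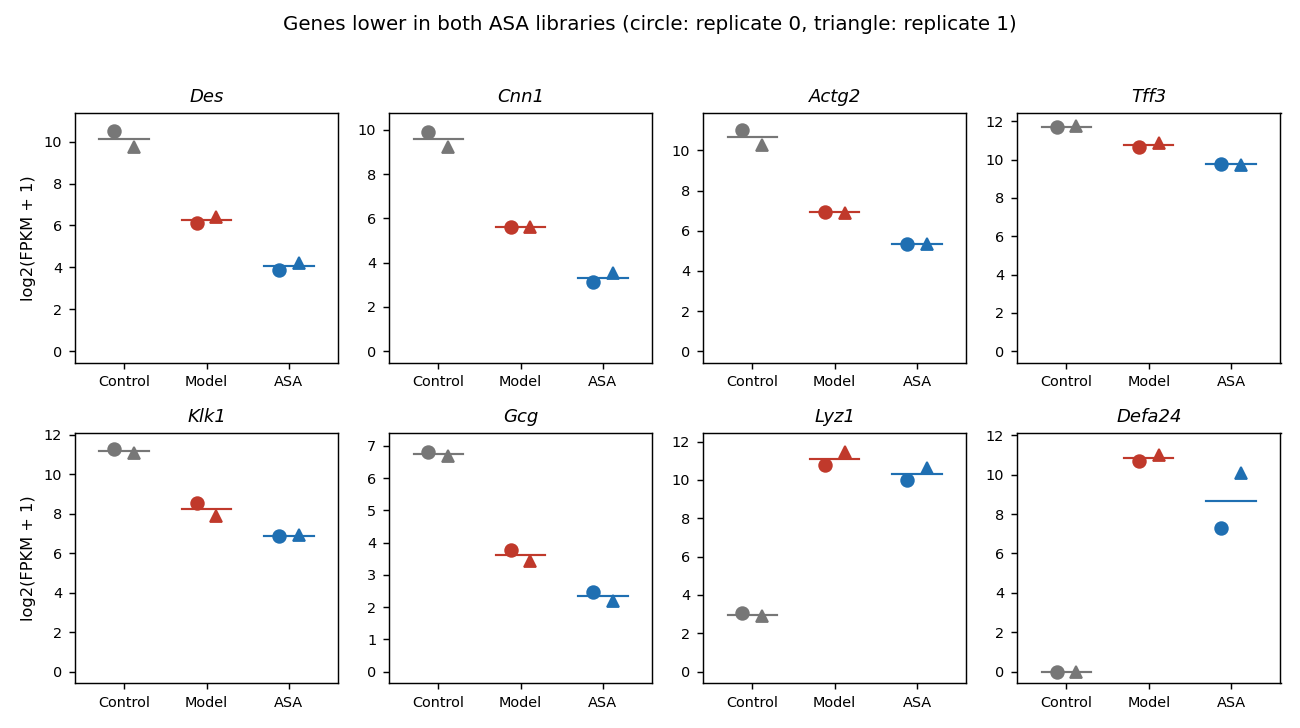
Levels of muscle (Des, Cnn1, Actg2), goblet cell (Tff3, Klk1), enteroendocrine (Gcg) and Paneth cell genes (Lyz1, Defa24) on the log2(FPKM + 1) scale in the Control, Model and ASA libraries. Each point is a library and each line a group mean. In all 8 genes both ASA points lie below both Model points, and the ASA points of Defa24 (154 and 1097 FPKM) are far apart.

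Among the targets of aspirin and the enzymes around them, no gene passed. Ptgs1, the cyclooxygenase expressed at rest, had 7.93 and 13.8 FPKM in Model and 11.2 and 13.5 in ASA (Control 18.5 and 14.6), and Ptgs2, the inducible enzyme, had 11.9 and 1.81 FPKM in Model and 33.2 and 6.82 in ASA (Control 4.99 and 1.57). Both overlap between the diets, and replicate 0 held the higher Ptgs2 value in both groups. Their log2 differences were 0.21 (95% interval -0.41 to 0.83) and 1.44 (95% interval -0.74 to 3.62). Ptges, the inducible prostaglandin E synthase, lay higher in both ASA libraries (7.33 and 8.61 FPKM in Model and 14.8 and 10.6 in ASA), and Ptgis, the prostacyclin synthase, lay lower (4.02 and 3.53 FPKM in Model and 1.05 and 1.53 in ASA, log2 difference -1.07 ± 0.29, unadjusted p = 0.00645, adjusted p = 1). Slco2a1, which carries prostaglandins into cells, had 9.03 and 7.24 FPKM in Model and 19.8 and 10.1 in ASA, and Hpgd had 32.3 and 36.0 FPKM in Model and 29.7 and 22.9 in ASA, against 165 and 154 in Control. The thromboxane receptor gene Tbxa2r had 1.04 and 1.39 FPKM in Model and 0.680 and 0.637 in ASA. Over the 21 genes of this list tested (of 24 listed), 1 was lower at an unadjusted p below 0.05, 2 lay above Model in both ASA libraries and 5 below, beside 12.8% and 14.2% of all rows, and the median was 0.06 (0.07 without ASA replicate 0 and -0.11 without Model replicate 0). Lipoxygenase and leukotriene genes, the other branch of arachidonic acid metabolism, had a median of -0.09 over 12 tested, which ran from -0.28 without ASA replicate 1 to 0.30 without ASA replicate 0, and 1 lay above Model in both libraries and 0 below.

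Ces1g, a carboxylesterase gene, had the smallest p after the 2 rows that passed. It had 7.40 and 5.66 FPKM in Model and 17.7 and 18.2 in ASA, against 3.58 and 4.26 in Control, a log2 difference of 1.34 ± 0.17 (adjusted p = 0.239) that was 1.36 without ASA replicate 0. Among the other listed esterases, Ces2e and Bche lay the other way. Ces2e had 53.7 and 44.7 FPKM in Model and 23.0 and 33.9 in ASA, and Bche, butyrylcholinesterase, which can hydrolyse aspirin in blood, had a log2 difference of -0.54 ± 0.31 (SE). Ces1g was the 1 gene of 19 tested in the list of esterases and salicylate-conjugating enzymes that lay above Model in both ASA libraries, 6 lay below, and the median was -0.24 (from -0.22 without Model replicate 1 to -0.12 without Model replicate 0). By the mean, 5 of the 19 were higher in ASA, Ces1g among them, and 14 lower. Of 27 other genes of drug metabolism tested (of 31 listed), 11 lay below Model in both libraries and 2 above, with 0 passing, 3 lower at an unadjusted p below 0.05 and a median of -0.29 (-0.26 without ASA replicate 0). Abcg2, an efflux pump, had 16.7 and 14.7 FPKM in Model and 8.04 and 9.78 in ASA, Sult1a1, a phenol sulfotransferase, had 19.1 and 12.7 FPKM in Model and 5.31 and 5.48 in ASA, and Cyp4f14, a fatty acid hydroxylase, had 22.9 and 20.8 FPKM in Model and 5.04 and 15.3 in ASA. In Control these 3 had 49.0 and 53.1, 195 and 277 and 97.9 and 88.3 FPKM, above all 4 Model and ASA libraries.

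Among inflammatory mediators no gene passed, and 12 of 18 cytokine genes, 11 of 12 CXC chemokine genes and 10 of 20 CC chemokine genes had a higher mean in ASA. Over all 14061 rows, the mean was higher in ASA in 6710. Of 18 cytokine genes tested (of 34 listed), 3 were higher at an unadjusted p below 0.05, 6 lay above Model in both ASA libraries and 1 below, with a median of 0.42 (0.32 without ASA replicate 0). Tnf had 5.11 and 4.04 FPKM in Model and 13.1 and 7.30 in ASA, against 0.338 and 0.419 in Control (log2 difference 0.96 ± 0.28, unadjusted p = 0.00932, adjusted p = 1). Il1a, an alarm cytokine of damaged epithelium, had 2.91 and 1.45 FPKM in Model and 5.72 and 4.28 in ASA, and Il1b, its relative from myeloid cells, had 39.3 and 17.9 FPKM in Model and 49.4 and 51.5 in ASA. Lif, of the interleukin-6 family, had 2.82 and 2.31 FPKM in Model and 5.08 and 4.80 in ASA. These 4 lay higher in both ASA libraries, while Il6 itself had 1.64 and 0.432 FPKM in Model and 12.3 and 1.22 in ASA, high in ASA replicate 0 alone.

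Several CXC chemokines draw neutrophils. Cxcl2 had 9.37 and 4.20 FPKM in Model and 22.6 and 21.0 in ASA, Cxcl3 had 6.90 and 2.82 FPKM in Model and 16.8 and 10.8 in ASA and Cxcl5 had 64.7 and 18.3 FPKM in Model and 100.1 and 93.7 in ASA, each without overlap, while Cxcl1, with 18.5 and 6.88 FPKM in Model and 63.1 and 16.5 in ASA, overlapped. Of 12 CXC chemokine genes tested (of 15 listed), 2 were higher at an unadjusted p below 0.05, 5 lay above Model in both ASA libraries and 0 below, and the median of 1.00 became 0.35 without ASA replicate 0 and 1.43 without ASA replicate 1. Ccl2, which draws monocytes, had 7.54 and 8.04 FPKM in Model and 34.1 and 13.5 in ASA (log2 difference 1.36 ± 0.40), with the higher value again in ASA replicate 0. The 20 CC chemokine genes as a list had a median of 0.03 (-0.27 without Model replicate 0 and -0.08 without ASA replicate 1), with 2 above and 1 below Model in both libraries. The 1 below was Ccl6, with 149.7 and 196 FPKM in Model and 89.0 and 111 in ASA and 394 and 402 in Control.

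NF-kB is the transcription factor family behind many of these genes, and salicylate has been studied as an inhibitor of its activation. Of 24 subunit, inhibitor and target genes tested, 9 lay above Model in both ASA libraries and 0 below, 23 had a higher mean in ASA, 1 was higher at an unadjusted p below 0.05, and 0 passed. The differences were small, with a median of 0.18 (from 0.11 without ASA replicate 0 to 0.30 without Model replicate 1). Tnfaip2 had 9.51 and 14.5 FPKM in Model and 19.1 and 18.7 in ASA, Rel, a subunit, had 3.59 and 2.39 FPKM in Model and 5.90 and 4.90 in ASA, and Nos2, the inducible nitric oxide synthase, had 12.1 and 8.76 FPKM in Model and 23.6 and 16.7 in ASA. All 3 lay higher in both ASA libraries.

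Of 34 interferon response genes tested, 28 had a higher mean in ASA. Irgm2, Igtp and Gbp2 code for GTPases that act against intracellular microbes. Irgm2 had 21.3 and 24.5 FPKM in Model and 36.6 and 39.2 in ASA, against 7.69 and 8.92 in Control (log2 difference 0.71 ± 0.17, unadjusted p = 0.00301, adjusted p = 1). Igtp had 13.8 and 18.9 FPKM in Model and 68.7 and 28.7 in ASA, and Gbp2 had 13.2 and 15.2 FPKM in Model and 175 and 20.1 in ASA. These 3 lay above Model in both ASA libraries, but Igtp and Gbp2 were far higher in ASA replicate 0. Of the 34 genes, 11 lay above Model in both libraries, 0 below, 3 were higher at an unadjusted p below 0.05 and 0 passed, with a median of 0.32, and 0.57 without ASA replicate 0 and 0.03 without ASA replicate 1.

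**Figure D4:**
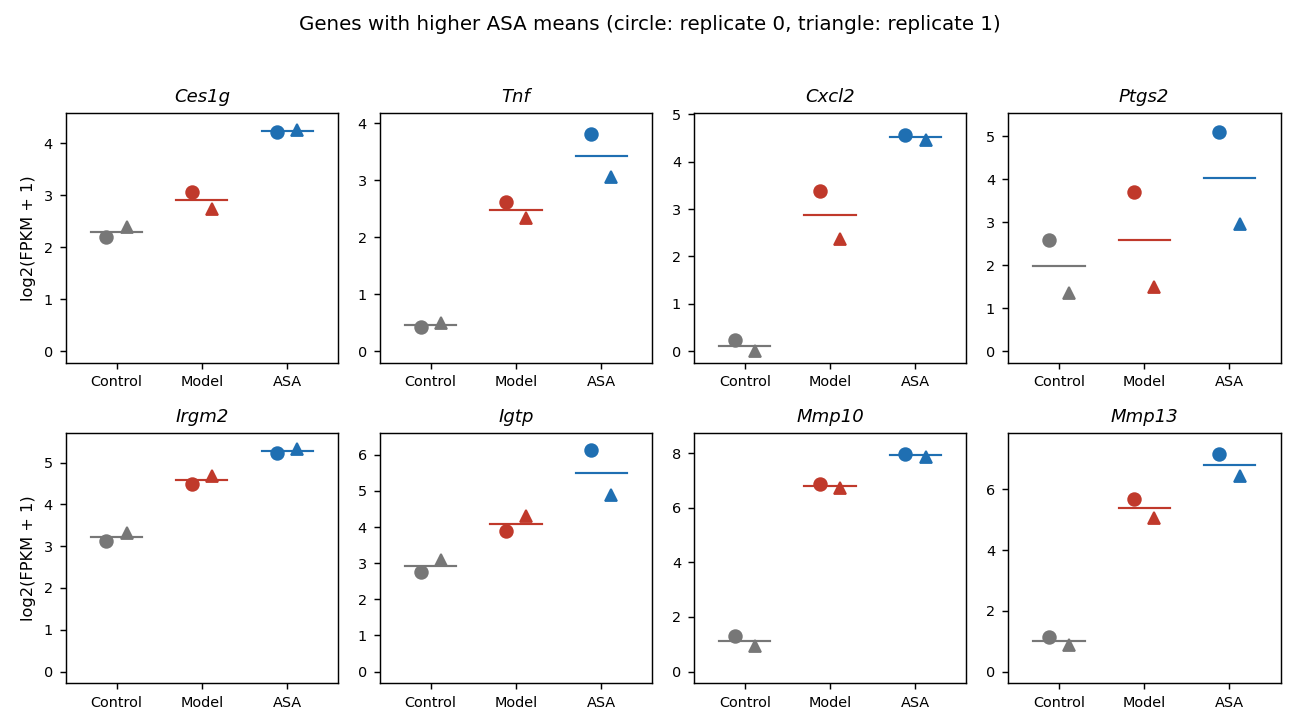
Levels of Ces1g, cytokine and chemokine genes (Tnf, Cxcl2), Ptgs2, interferon response genes (Irgm2, Igtp) and metalloproteinases (Mmp10, Mmp13) on the log2(FPKM + 1) scale in the Control, Model and ASA libraries. Each point is a library and each line a group mean. Both ASA points lie above both Model points in all genes but Ptgs2, whose libraries overlap (33.2 and 6.82 FPKM in ASA).

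Immune cell lists differed with single libraries. Neutrophil genes had a median of 0.74 over 13 tested (of 18 listed), with 6 above Model in both ASA libraries and 0 below, 0 passed and 1 was higher at an unadjusted p below 0.05. The median was 0.30 without ASA replicate 1 and 1.10 without ASA replicate 0. ASA replicate 1 was the high library: the median of ASA replicate 0 minus ASA replicate 1 was -1.10. Fcgr4, an Fc receptor, had 6.51 and 9.64 FPKM in Model and 12.9 and 15.1 in ASA, and Cxcr2, the receptor for the chemokines above, had 2.18 and 1.71 FPKM in Model and 2.50 and 6.73 in ASA. S100a8, a calcium-binding protein that neutrophils hold in bulk, had 80.1 and 44.0 FPKM in Model and 83.4 and 228 in ASA. The 5 leukocyte markers Ptprc, Cd3e, Cd79a, Csf1r and S100a8 summed to 117 and 133 FPKM in Model and 115 and 287 in ASA. S100a8 alone gave 228 of the 287 FPKM in ASA replicate 1. Among the 4 libraries, Cd3e, Cd79a and Csf1r were highest in Model replicate 1. Ptprc was nearly level between Model replicate 1 and ASA replicate 1. The CXC chemokine list was highest in ASA replicate 0, and the CC chemokine list in Model replicate 1. The part of neutrophils in the chemokine and cytokine values was not tested.

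Macrophage and dendritic cell genes had a median of -0.13 over 21 tested and T and NK cell genes -0.20 over 17. Both changed sign with the Model library left out: the macrophage median was -0.76 without Model replicate 0 and 0.41 without Model replicate 1 (0.31 without ASA replicate 0), and the T and NK cell median -0.85 and 0.46. By the mean, 8 of the 21 macrophage and dendritic cell genes were higher in ASA and 13 lower. Marco and Cd14 were the 2 that lay above Model in both ASA libraries and 0 lay below, beside 12.8% and 14.2% of all rows. Marco, a scavenger receptor of macrophages, had 0.286 and 0.976 FPKM in Model and 3.06 and 2.71 in ASA. Cd14, a receptor for bacterial lipopolysaccharide, had 57.9 and 41.2 FPKM in Model and 69.5 and 74.7 in ASA. Arg1, arginase, had 76.6 and 34.0 FPKM in Model and 68.6 and 185 in ASA and overlapped.

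Several B and plasma cell genes lay lower in both ASA libraries, while the list median depended on 1 Model library. Mzb1, a chaperone of antibody-secreting cells, had 20.5 and 61.4 FPKM in Model and 8.72 and 8.11 in ASA (Control 31.0 and 11.4), and Tnfrsf17, a survival receptor of plasma cells, had 1.43 and 3.93 FPKM in Model and 0.418 and 0.622 in ASA. With Jchain, 7 of 15 tested genes lay below Model in both ASA libraries and 2 above, 5 were lower at an unadjusted p below 0.05, 0 passed, and the median was -0.48 (-0.70 without ASA replicate 0). Without Model replicate 1, the library with the most such RNA, the median was -0.01, and Jchain's log2 difference went from -2.27 to -1.43. Mast cell genes had a median of -0.71 over 13 tested (from -1.15 without ASA replicate 1 to 0.25 without ASA replicate 0). Of these, 1 (Il1rl1) lay above Model in both ASA libraries and 2 below. Tpsg1, a tryptase gene that is not in that list, had 16.4 and 21.1 FPKM in Model and 5.91 and 7.80 in ASA (log2 difference -1.33 ± 0.25, adjusted p = 0.833). In Control it had 73.4 and 50.6 FPKM, above Model, whereas the list had a median of 1.85 in Model minus Control.

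Matrix metalloproteinases cut the extracellular matrix in wounds and tumours. Mmp10 had 116 and 103 FPKM in Model and 249 and 230.1 in ASA, against 1.48 and 0.917 in Control (log2 difference 1.12 ± 0.44, unadjusted p = 0.0331). Mmp13, a collagenase, had 50.6 and 32.5 FPKM in Model and 143 and 86.3 in ASA (log2 difference 1.43 ± 0.49, unadjusted p = 0.0193), and Mmp3 had 11.9 and 18.4 FPKM in Model and 51.7 and 23.2 in ASA. The adjusted p was 1 for each of these 3, all higher in both ASA libraries. Of 18 tested genes, 2 were higher at an unadjusted p below 0.05, 6 lay above Model in both ASA libraries and 0 below, with a median of 0.27 (from 0.11 without ASA replicate 1 to 0.54 without Model replicate 1). Nrg1, a ligand of the EGF receptor family made by stroma, had 5.87 and 3.36 FPKM in Model and 11.2 and 8.74 in ASA, and Hk2, the hexokinase that opens glycolysis, had 54.0 and 30.7 FPKM in Model and 77.4 and 64.8 in ASA. Cp, ceruloplasmin, a copper protein that also rises in inflammation, had 14.0 and 15.9 FPKM in Model and 28.9 and 33.6 in ASA (Control 2.20 and 2.57, log2 difference 1.02 ± 0.18, adjusted p = 0.833). Il1rl1, the receptor of interleukin-33, had 61.5 and 23.3 FPKM in Model and 99.3 and 79.3 in ASA.

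The genes of inducible HSP70 lay lower in both ASA libraries than in both Model libraries, while the wider heat shock list depended on 1 library. Hspa1a had 15.1 and 6.85 FPKM in Model and 1.93 and 2.83 in ASA and Hspa1b, its copy, had 44.5 and 17.2 FPKM in Model and 5.87 and 9.11 in ASA. Both code for the inducible chaperone HSP70, and their sum was 59.6 and 24.1 FPKM in Model, 7.80 and 11.9 in ASA and 32.8 and 25.2 in Control. The summed row had a log2 difference of -1.87 (adjusted p = 0.994), in an alternative added after the data were seen. Dnajb1, a partner of HSP70, had 56.4 and 41.7 FPKM in Model and 38.5 and 27.4 in ASA, and Dnajb9, a chaperone partner in the endoplasmic reticulum, had 27.6 and 25.9 FPKM in Model and 20.3 and 20.6 in ASA. Of 24 tested genes of heat shock and the unfolded protein response, 8 lay below Model in both ASA libraries, 0 above, 3 were lower at an unadjusted p below 0.05 and 0 passed, and the median of -0.30 became -0.00095 without ASA replicate 0. The curcumin libraries were low too, with 1.90 and 1.58 FPKM of Hspa1a in CUR and 2.64 and 2.62 in ASA+CUR.

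The promoters of Hspa1a (chr17:34972107-34972406, minus strand) and Hspa1b (chr17:34959189-34959488, minus strand, RefSeq, GRCm38.p6) are shown because both genes lay lower in both ASA libraries and are alike in sequence, with 296 of 300 bases the same (98.7%). Capitals mark matches to the heat shock element, the site of heat shock factor, searched as GAANNTTC and TTCNNGAA, each of which reads the same on both strands:
Hspa1a: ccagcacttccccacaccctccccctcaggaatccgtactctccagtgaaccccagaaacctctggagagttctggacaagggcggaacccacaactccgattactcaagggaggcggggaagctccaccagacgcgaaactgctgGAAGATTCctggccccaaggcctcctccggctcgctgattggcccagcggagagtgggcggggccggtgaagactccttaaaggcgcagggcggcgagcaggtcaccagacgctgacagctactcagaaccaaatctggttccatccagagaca
Hspa1b: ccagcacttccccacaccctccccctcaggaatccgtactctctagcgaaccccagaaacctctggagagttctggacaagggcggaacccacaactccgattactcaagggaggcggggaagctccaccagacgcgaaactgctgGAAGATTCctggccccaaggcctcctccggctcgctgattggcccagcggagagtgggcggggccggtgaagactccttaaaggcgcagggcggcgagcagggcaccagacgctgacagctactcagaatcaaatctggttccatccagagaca
GAANNTTC was found in 7 of the 21 listed genes with a promoter, beside 9.04% of 27025 genes, and TTCNNGAA in 3, beside 9.6%. A match describes the letters only.

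Axin2, Lgr5, Myc and Mki67, markers of Wnt signalling, stem cells and growth, overlapped between the diets. Axin2, a feedback inhibitor and readout of Wnt signalling, had 74.4 and 61.3 FPKM in Model and 65.0 and 77.5 in ASA, against 13.9 and 13.0 in Control. Lgr5, a stem cell receptor, had 12.3 and 11.9 FPKM in Model and 15.8 and 10.6 in ASA, and Myc, a Wnt target and growth regulator, had 55.6 and 49.4 FPKM in Model and 37.1 and 59.4 in ASA. Mki67, a marker of dividing cells, had 21.5 and 11.7 FPKM in Model and 25.4 and 12.9 in ASA. The log2 difference was 0.07 (95% interval -0.65 to 0.79) for Axin2, 0.09 (95% interval -0.55 to 0.74) for Lgr5, -0.16 (95% interval -0.72 to 0.41) for Myc and 0.18 (95% interval -0.63 to 0.99) for Mki67, so each interval holds differences in either direction. The Wnt target list had a median of 0.08 over 28 tested (4 above and 1 below Model in both libraries), the stem cell list 0.02 over 18 (3 and 0) and the cell cycle list -0.15 over 32 (0 and 1). The Wnt target median ran from -0.09 without ASA replicate 1 to 0.17 without ASA replicate 0 and the stem cell median from -0.10 without Model replicate 1 to 0.05 without ASA replicate 0. The cell cycle median was 0.34 without Model replicate 0 and -0.64 without Model replicate 1. Within the Model group replicate 0 minus replicate 1 had a median of 1.05 for that list.

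All 29 oxidative phosphorylation genes had a lower mean in ASA as deposited (29 under upper quartile scaling and 23 under quantile normalization), with a median of -0.12 (from -0.29 without Model replicate 1 to 0.03 without Model replicate 0), and 3 lay below Model in both libraries. Of these, Ndufb5, a subunit of complex I, had 104 and 92.2 FPKM in Model and 66.0 and 76.3 in ASA. Genes of fatty acid oxidation had a median of -0.18 over 28, with 5 below Model in both libraries and 0 above, and the median was -0.0026 without ASA replicate 0. Nrf2 targets had a median of -0.0046 over 29 (from -0.06 without Model replicate 1 to 0.13 without ASA replicate 0), and Nqo1 and Hmox1, a quinone reductase and haem oxygenase, had 17.7 and 18.4 FPKM in Model and 24.2 and 15.4 in ASA and 30.2 and 109.6 FPKM in Model and 76.0 and 159 in ASA. p53 targets had a median of 0.02 over 25 (from -0.00028 without ASA replicate 1 to 0.04 without ASA replicate 0) and glycolysis genes 0.03 over 26 (from -0.12 without Model replicate 1 to 0.12 without Model replicate 0). Immediate early genes, which respond within minutes to stimulation and to handling of tissue, had a median of 0.08 over 24 (from -0.15 without ASA replicate 0 to 0.32 without ASA replicate 1).

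Genes of position and of stratified epithelium differed between libraries of 1 diet. Of the 9 distal colon position genes tested, the median was 0.36 and 0.01 without ASA replicate 0. Squamous epithelium, which lines the anal canal, had a list median of 0.59 over 21 tested, which ran from -0.16 without ASA replicate 0 to 1.37 without Model replicate 0 and was -0.09 without Model replicate 1. The list stood high in replicate 0 of both groups: replicate 0 minus replicate 1 had a median of 1.77 in Model and 1.12 in ASA. Krt5, a keratin of its basal layer, had 10.3 and 0.130 FPKM in Model and 94.5 and 0.0324 in ASA, while Krt14, its partner keratin, had 51.7 and 9.97 FPKM in Model and 117 and 57.3 in ASA. The 7 squamous markers Krt5, Krt14, Krt13, Krt4, Krt6a, Trp63 and Sbsn summed to 3.16 and 1.92 FPKM in Control, 137 and 16.2 in Model and 379 and 97.0 in ASA. In the absorptive colonocyte list ASA replicate 0 minus ASA replicate 1 had a median of 0.05. Fabp2 and Cldn15 themselves were lowest in ASA replicate 0: Fabp2, a fatty acid binding protein, had 69.4 and 62.5 FPKM in Model and 10.5 and 40.9 in ASA, and Cldn15, a claudin that passes sodium, had 50.8 and 69.3 FPKM in Model and 10.4 and 47.5 in ASA. Reg3b, an antimicrobial lectin of inflamed gut, had 214 and 7.80 FPKM in Model and 358 and 219 in ASA and Reg3g 132 and 15.9 FPKM in Model and 592 and 90.1 in ASA, with the lowest value in Model replicate 1. Epcam, the general epithelial marker, had 924 and 746 FPKM in Model and 795 and 885 in ASA and overlapped.

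**Figure D5:**
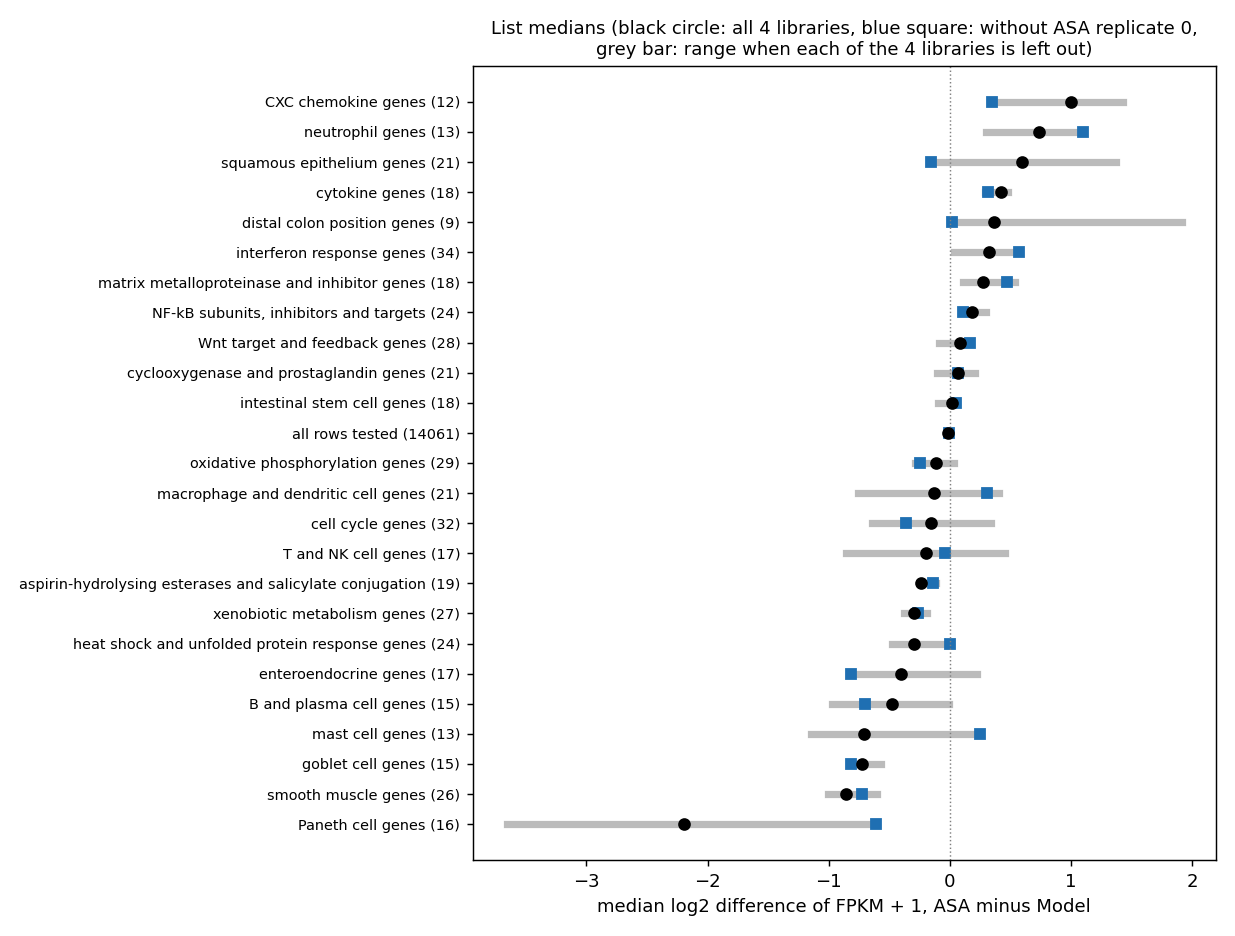
Median log2 difference (FPKM + 1, ASA minus Model) of 24 gene lists and of all 14061 rows, with the number of genes tested in brackets. Black circles use all 4 libraries, blue squares leave out ASA replicate 0, and grey bars span the medians with each of the 4 libraries left out in turn. The smooth muscle and goblet cell bars lie below 0 and the CXC chemokine, cytokine and neutrophil bars above 0, whereas the mast cell, squamous and T and NK cell bars cross 0.

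Outside these groups, a few single genes lay on the same side of both Model libraries in both ASA libraries. Rsrp1, an arginine- and serine-rich protein gene, had 133 and 131 FPKM in Model and 73.6 and 60.4 in ASA, against 138 and 152 in Control (log2 difference -0.97 ± 0.14, adjusted p = 0.243, and -1.11 without ASA replicate 0). Scgb1b3, a secretoglobin gene, had 6.78 and 5.22 FPKM in Model and 0.837 and 0.831 in ASA (adjusted p = 0.59). Alb, albumin, which the liver makes, had 46.9 and 112 FPKM in Model and 6.03 and 23.4 in ASA, against 0.696 and 1.12 in Control. Bhlhe40, a repressor tied to the clock, had 81.6 and 67.5 FPKM in Model and 118 and 90.4 in ASA, while the core clock list had a median of 0.05 over 17 tested (from -0.24 without ASA replicate 0 to 0.37 without ASA replicate 1).

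The ASA+CUR and CUR libraries entered the fit through its spread and its filter, but not the ASA and Model means. They offer a second pair of groups that differ by aspirin, though also by curcumin dose (1% against 2%). These groups differ in colon position too, since CUR replicate 1 and both ASA+CUR libraries had between 65.2 and 87.7 FPKM of Hoxd13. Their values are given without a test for some of the genes that differed above. The parts of aspirin, curcumin dose and position in these values were not tested. Rsrp1 had 141 and 135 FPKM in CUR and 71.8 and 74.7 in ASA+CUR, so the 4 libraries with aspirin lay between 60.4 and 74.7 and the 6 without between 131 and 152. Gcg had 12.4 and 10.9 in CUR and 3.78 and 3.95 in ASA+CUR, Tff3 3027 and 2317 and 944 and 999, and Klk1 278 and 485 and 132 and 116. These 3 were lower in ASA+CUR than in CUR, without overlap. Ces1g had 6.62 and 7.18 in CUR and 8.47 and 8.18 in ASA+CUR, a smaller gap than in the ASA group. Des had 23.6 and 34.8 and 27.8 and 21.2, Irgm2 30.4 and 37.3 and 14.5 and 12.0, and Hspa1b 5.20 and 3.38 and 8.60 and 5.49. In these 3 the ASA+CUR libraries overlapped CUR or lay on the other side from the ASA difference. Pcsk1 had 0.890 and 0.820 in CUR and 0.824 and 0.826 in ASA+CUR, and Sst 0 and 1.34 and 0.870 and 0.480. Cnn1 had 14.5 and 28.4 in CUR and 21.4 and 19.4 in ASA+CUR, and Mmp10 151 and 64.0 and 134 and 283. All of these overlapped.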

How the data were processed

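The authors deposited FPKM values of RefSeq transcripts in all 10 libraries. The submitters' processing notes name TopHat2 2.0.9 with Bowtie2 2.1.0.0, bcl2fastq 2.17.1.14, Cuffdiff, mm10 and GRCm38. Cuffdiff's version and the treatment of strand, duplicates and multi-mapping fragments are not given in the sources used here. Cuffdiff divides fragments among transcripts by a model, so values are estimates, near-identical copies can trade fragments, and a 0 can be a failed estimate. RNA came from an AllPrep kit and libraries from TruSeq RNA v2, per the labels' protocols.

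The 30073 transcript rows were summed per gene into 23473 rows. A RefSeq table of GRCm38.p6 named 29443 transcripts and GENCODE a further 179. The 14061 rows (180 of them unnamed) that reached 1 FPKM in 2 or more libraries were tested as log2(FPKM + 1), which understates changes of low genes, with limma 3.58.1 in R 4.3.3 (variance trend, all 10 libraries in 1 fit, 5 residual and 2.96 prior degrees of freedom, two-sided, Benjamini-Hochberg over all rows, threshold 0.05). Log2 differences carry limma's standard errors. The fit was tested on simulated data.

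Gene lists (49, with 982 symbols, of which 971 matched and 867 were tested) are described by counts and medians, with no list test. The comparison and the lists were chosen with earlier results of these data known. The genes named were drawn from the rows that passed, the 12 smallest p-values, up to 4 genes of each list by p and 19 genes fixed by name. They were also drawn from the 10 largest and 10 smallest differences without overlap, among rows with a mean of at least 5 FPKM in Model or ASA. Not every gene picked by these rules is named. Hoxd13, Hoxb13, Krt5, Myl9, Ldb3, Itln1, Pla2g2a, S100a8, Lyz1 and Defa24 were added for their promoter, role or marker status after values were seen. Alternatives were another pseudocount, filter, scaling, prior or set of libraries, single transcripts, summed copies, a replicate block and each library left out. Of the same-numbered Model and ASA libraries the deviations correlated at 0.297 across rows, and other group pairs ran from -0.214 to 0.326, so the replicate numbers were not used as pairs.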

Additional observations from a re-analysis of the deposited data

How the results depend on the processing

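The count of 2 rows in ASA against Model became 0 with a pseudocount of 5 FPKM, with only the AOM/DSS libraries in the fit and with transcripts tested singly, and 1 with at least 5 FPKM in 2 libraries and with the globin copies summed. It ranged from 0 to 1 with each Model or ASA library left out. Rows at an unadjusted p below 0.05 were 558 with no filter on low values, where 19106 rows were tested, and ranged from 293 (without ASA replicate 0) to 861 (without Model replicate 0) with a library left out, 813 without ASA replicate 1, beside 335 with all. Model against Control ranged from 322 to 1644 rows and ASA against Control from 785 to 2178 with a library left out, the lowest without Control replicate 1 in both, in alternatives added after the data were seen. A group left with 1 library was assumed to vary like the others. The replicate block, with the replicate number as a term, also gave 2 rows, Hba-a2 and NM_010039, both with adjusted p = 0.0464, and 340 at an unadjusted p below 0.05. NM_010039 lost its call in 6 alternatives, with an adjusted p of up to 0.684 (only the Model and ASA libraries). With Model replicate 0 or Model replicate 1 left out, it missed the filter on low values and was not tested.

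For the 112 genes given with values, 1634 values under an alternative kept direction and side of the threshold, 12 lost the call, 2 gained one and 24 reversed. The alpha-globin sum (0.16 against -0.72 for Hba-a1 alone) was the 1 reversal outside the left-out libraries. With a library left out, the ranges of the reversing log2 differences were -1.59 to 4.59 for Hoxd13, -1.72 to 1.92 for Hoxb13, -1.79 to 4.74 for Krt5, -1.55 to 0.10 for Hba-a1, -0.67 to 0.59 for Hbb-bs, -0.25 to 0.49 for Alas2, -0.056 to 0.43 for Ldb3, -0.20 to 0.40 for Pla2g2a, -0.15 to 0.58 for Ptgs1, -0.067 to 0.21 for Axin2, -0.17 to 0.36 for Lgr5, -0.49 to 0.18 for Myc, -0.29 to 0.64 for Mki67, -0.22 to 0.40 for Nqo1, -0.24 to 3.48 for Ppbp and -0.14 to 0.17 for Epcam. List medians moved by more than the spread between libraries in 54 of 343 values under an alternative. The cause of these shifts was not tested. The median of all rows was -0.013 under upper quartile scaling and 0.002 under quantile normalization, beside -0.012 as deposited (log2).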

Other observations

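Other gene groups gave values that belong to no comparison above. Genes of fetal-like, regenerating epithelium had a median log2 difference (ASA minus Model) of 0.12 over 20 tested (from 0.02 without Model replicate 1 to 0.33 without ASA replicate 0), with 5 above Model in both ASA libraries and 0 below. Anxa1, annexin A1, which limits neutrophil inflammation, had 393 and 242 FPKM in Model and 553 and 443 in ASA. Among acute-phase genes, Saa3 had 117 and 141 FPKM in Model and 345 and 557 in ASA. Of 27 absorptive colonocyte genes tested, 14 had a higher mean in ASA and 13 a lower one. Their median was 0.07 (from -0.32 without Model replicate 1 to 0.40 without Model replicate 0). In both libraries 0 lay above Model and 2 below, beside 12.8% and 14.2% of all rows. The 2 were Guca2a, which codes for the hormone guanylin (404 and 422 FPKM in Model and 130.1 and 217 in ASA, against 3247 and 3133 in Control), and Car2, a carbonic anhydrase (182 and 227 FPKM in Model and 94.0 and 178 in ASA).

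Platelet genes, of interest because aspirin blocks platelet thromboxane, were tested in 6 of 12 cases, with a median of 0.11 (from -0.24 without Model replicate 0 to 0.58 without Model replicate 1). Ppbp, a platelet chemokine, had 8.18 and 4.36 FPKM in Model and 76.9 and 4.94 in ASA, high in ASA replicate 0 alone. Slc7a11, the cystine transporter, had 3.63 and 3.30 FPKM in Model and 6.89 and 9.39 in ASA, above Model in both ASA libraries. Tnfsf10, a ligand that triggers cell death, had 2.90 and 3.22 FPKM in Model and 16.2 and 4.33 in ASA. None of these genes passed limma's test (adjusted p = 1 for each).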
